A study of Homo sapiens with 11 samples.

Results

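The nuclear genes of respiratory complexes II to V were taken from both count tables by symbol. They were SDHA, SDHB, SDHC, SDHD and CYC1, together with every gene whose symbol starts with UQCR, COX4 to COX8 or ATP5. Of 26485 genes in the tables, 52 matched, and 50 remained after the pseudogenes ATP5EP2 and UQCRBP1 were left out. Complex II had 4 of these genes, complex III had 10, complex IV had 17 and complex V had 19. The tables use older symbols for 19 of them, so that ATP5B is the gene now called ATP5F1B and ATP5G1 is now ATP5MC1.

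RNA-seq read counts were analysed for 11 libraries of Caki1-SR cells. Caki-1 is an established human clear cell renal cell carcinoma line from a skin metastasis, and the SR cells were made resistant to the kinase inhibitor sunitinib by chronic exposure. All groups were kept in medium with 1 µM sunitinib, and all cells came from 1 line. ODC combines 4 drugs: parthenolide, a plant sesquiterpene lactone, at 5 µM, the antidiabetic metformin at 1 µM, the EGFR inhibitor erlotinib at 1 µM, and the ruthenium compound Rapta-C at 2 µM. CTRL cells did not receive these 4 drugs. The 24 h comparison had 3 CTRL and 3 ODC libraries, and the 2 h comparison had 2 CTRL and 3 ODC libraries. Library totals were between 17785229 and 20882856 counts at 24 h and between 25782895 and 31118349 at 2 h. The labels do not say that replicates were separate cultures, so p-values measure only the spread between these libraries, which may be technical. In bulk RNA, fewer cells of a kind and less RNA per cell cannot be told apart. The line kept PAX8, VIM, KRT8 and KRT18, while CA9 and LRP2, markers of clear cell carcinoma and of the proximal tubule, did not exceed 7 counts in any library. At 24 h, 3 of the 6 tested line markers were lower in ODC (VIM, KRT8 and KRT18, against 5.04% of all genes). GGT1 was higher (1 of 6, against 7.2%). These counts are at an unadjusted p under 0.05 by edgeR's quasi-likelihood test. CDH16 (log2 fold change 1.53) passed that threshold only by edgeR's likelihood ratio test. After adjustment the quasi-likelihood test called 0 of the 6. The likelihood ratio test and DESeq2 each called 2, against 401 and 386 of 12689 genes. The part of these markers in the results below was not tested.

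Complex II oxidises succinate and passes the electrons to ubiquinone. Complex III passes them on to cytochrome c, complex IV reduces oxygen with them, and complex V, the ATP synthase, uses the proton gradient across the inner membrane to make ATP. Most subunits are encoded in the nucleus, and the renal proximal tubule, from which clear cell carcinoma is thought to arise, depends strongly on this pathway. The mitochondrially encoded subunits were not analysed here, so every value below describes nuclear transcripts alone.

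The promoters of respiratory genes are known for binding sites of NRF1 and of the ETS factor GABP (also called NRF2, a factor distinct from the oxidative stress regulator of that name). Both motifs were searched on both strands from 250 bases before to 50 after the annotated start (RefSeq, GRCh38.p14), for the 32 of 42 tested genes that had such a window. For 5 of them the table holds more than 1 window, and a gene was counted when any of its windows held the motif. The ETS motif CCGGAAG was present in 15 of 32 (46.9%), against 16.5% of 15843 protein-coding genes. The NRF1 motif, GCGCA followed by any base and GCGC, was present in 9 (28.1%, against 9.67%), and 21 (65.6%, against 23.9%) held at least 1 of these motifs. The CCAAT box was found for 43.8% of the 32 genes against 42.1%, and the SP1 motif GGGCGG for 59.4% against 64.3%. The 15843 genes were not limited to those these cells express, while the 32 had passed a filter on counts, so the shares compare unlike sets. These matches are letters in a window and were not tested as binding sites. The windows below were chosen to show these motifs, with 1 or 2 genes from each complex. Each gives 120 bases 5′ to 3′ on the gene's strand, ending just before the annotated start, with the ETS and NRF1 matches in capitals. SDHA and SDHD are on the plus strand at chr5:218200-218319 and chr11:112086753-112086872. UQCR11 is on the minus strand at chr19:1605463-1605582, COX5B on the plus strand at chr2:97645942-97646061, and ATP5O on the minus strand at chr21:33915805-33915924.
SDHA: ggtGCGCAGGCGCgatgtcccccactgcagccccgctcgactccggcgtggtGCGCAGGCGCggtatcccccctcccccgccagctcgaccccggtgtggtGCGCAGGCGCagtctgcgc
SDHD: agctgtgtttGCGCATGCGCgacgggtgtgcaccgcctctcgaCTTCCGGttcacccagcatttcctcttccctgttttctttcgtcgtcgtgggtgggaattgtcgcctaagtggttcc
UQCR11: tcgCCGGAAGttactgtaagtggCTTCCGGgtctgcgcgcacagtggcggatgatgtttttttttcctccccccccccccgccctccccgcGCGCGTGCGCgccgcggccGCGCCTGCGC
COX5B: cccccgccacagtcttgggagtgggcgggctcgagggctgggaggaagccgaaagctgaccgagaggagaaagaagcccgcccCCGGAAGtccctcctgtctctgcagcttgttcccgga
ATP5O: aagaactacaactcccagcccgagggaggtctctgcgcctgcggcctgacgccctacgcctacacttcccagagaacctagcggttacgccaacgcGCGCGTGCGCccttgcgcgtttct

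Which subunits these cells express was the same in all 11 libraries. Of the 50 genes, 42 passed the filter on low counts in both comparisons: all 4 of complex II, all 10 of complex III, 11 of complex IV and 17 of complex V. The 8 genes below it were the tissue-restricted isoforms of complex IV and the copies or readthrough genes of complex V. COX4I2, the lung and hypoxia isoform of subunit 4, COX6A2 of heart and muscle, COX7B2 and COX8C of testis, and the readthrough gene ATP5J2-PTCD1 had 0 counts in every library. Testis COX6B2 reached at most 4 counts, the muscle isoform COX7A1 at most 1 and ATP5L2, a copy of ATP5L, at most 2. A count of 0 allows up to 3 counts in a library, which was between 0.144 and 0.166 CPM (counts per 1000000 of the scaled library total) at 24 h and between 0.0953 and 0.116 CPM at 2 h. This limit covers counting error only.

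The ubiquitous counterparts of these isoforms were abundant and their CTRL and ODC values overlapped at 24 h. COX4I1 was at 309, 267 and 271 CPM in the CTRL libraries and at 323, 287 and 255 CPM in the ODC libraries. COX6A1 was at 107, 102 and 94.9 CPM in CTRL and 116, 103 and 95.8 CPM in ODC. COX6B1 was at 139, 135 and 118 CPM in CTRL and 140, 140 and 109 CPM in ODC. No ODC library of these genes lay apart from the CTRL range by more than the CTRL libraries differed from each other. COX7A2 was at 89.9, 68.4 and 73.5 CPM in CTRL and 88.9, 69.4 and 54.1 CPM in ODC. COX7B was at 192, 147 and 140 CPM in CTRL and 197, 155 and 102 CPM in ODC. COX8A was at 128, 143 and 129 CPM in CTRL and 140, 130 and 121 CPM in ODC. In COX4I1, COX6B1, COX7A2, COX7B and COX8A the lowest value was that of ODC library 6, and in COX6A1 it was not. COX7A2L, which helps to join complexes III and IV into supercomplexes, was at 122, 91.6 and 107 CPM in CTRL and 111, 96.0 and 90.7 CPM in ODC. Its lowest value was also that of ODC library 6.

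At 24 h no gene of complexes II to V passed an adjusted p of 0.05. The quasi-likelihood test of edgeR, adjusted by Benjamini-Hochberg over all genes tested, called 0 of 42, against 24 of 12689 genes tested (0.189%), and the lowest adjusted p was 0.344. DESeq2 and edgeR's likelihood ratio test also called 0 of 42, against 386 and 401 of 12689 genes. With so few calls over all genes, a count of 0 does not set these 42 genes apart. At an unadjusted p under 0.05, 1 gene was lower (ATP5S) and 0 were higher, against 5.04% and 7.2% of all genes. Only ATP5S had groups that did not overlap, 1 of 42 (2.38%) against 17.9% of all genes.

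The fold changes were small as well as uncalled. The log2 fold changes of the 42 genes lay between -0.44 and 0.32, and their median was -0.037, against 0.00089 over all genes. The fold change was below 0 for 28 of 42 (66.7%), against 49.9% of all genes. The estimate was under 10% in either direction for 36 of 42. The 95% interval stayed within a 2-fold change either way for 41 of 42 genes (97.6%, against 83% of all genes) and within 1.5-fold for 37 (88.1%, against 57.6%). ATP5E, the F1 epsilon subunit, was the exception to 2-fold, with an upper bound of 1.04 on the log2 scale at 30 to 67 counts per library. The intervals had a median half-width of 0.31 on the log2 scale. A change smaller than that was in general not detectable even at an unadjusted p of 0.05. After adjustment the limit was larger, as ATP5S at -0.44 had an adjusted p of 0.344 by edgeR's quasi-likelihood test.

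**Figure D1:**
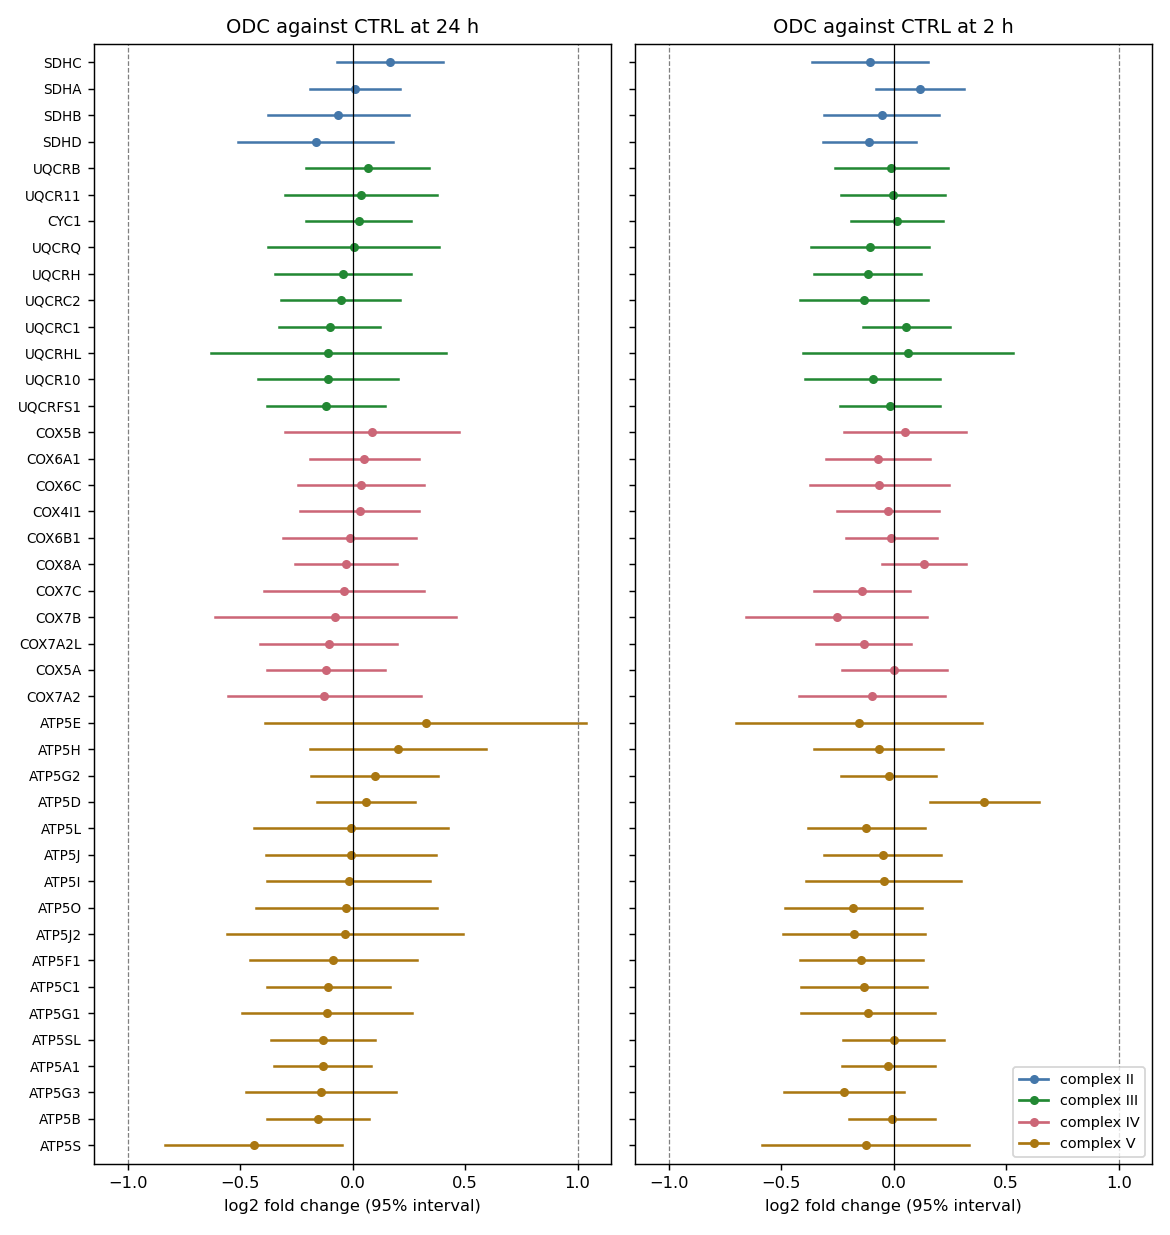
Log2 fold change of ODC against CTRL (x axis) with its 95% interval for the 42 tested genes (y axis), coloured by complex, at 24 h (left, 3 against 3 libraries) and 2 h (right, 2 CTRL against 3 ODC libraries); dashed lines mark a 2-fold change. The interval lies wholly to one side of 0 for ATP5S at 24 h and ATP5D at 2 h only.

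In complex II, SDHA carries the flavin that oxidises succinate, SDHB carries iron-sulfur clusters, and SDHC and SDHD anchor the enzyme in the membrane. SDHA was at 196, 210 and 187 CPM in CTRL and 196, 202 and 199 CPM in ODC at 24 h, a log2 fold change of 0.01 with a 95% interval from -0.19 to 0.21, the narrowest among the 42. The 2 membrane anchors had the highest and the lowest fold change of the complex. SDHC was at 52.1, 48.2 and 46.5 CPM in CTRL and 59.7, 54.0 and 50.8 CPM in ODC (log2 fold change 0.16, SE 0.10). SDHD was at 79.9, 62.4 and 76.0 CPM in CTRL and 69.4, 52.7 and 72.6 CPM in ODC (log2 fold change -0.16, SE 0.15). Values of the groups overlapped for both anchors. By edgeR's quasi-likelihood test, the adjusted p was 0.575 for SDHC and 0.725 for SDHD.

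In complex III, the 10 genes lay between -0.12 and 0.07 on the log2 scale at 24 h. The highest was UQCRB, a ubiquinone-binding small subunit, at 167, 143 and 150 CPM in CTRL and 184, 154 and 144 CPM in ODC. The lowest was UQCRFS1, the Rieske iron-sulfur protein that takes electrons from ubiquinol, at 152, 127 and 147 CPM in CTRL and 145, 128 and 120 CPM in ODC. For both genes the ODC values spanned most of the CTRL range. The core proteins UQCRC1 and UQCRC2 and cytochrome c1 (CYC1) had log2 fold changes of -0.10, -0.05 and 0.03. UQCRH, the hinge protein, was at 270, 226 and 233 CPM in CTRL and 274, 228 and 204 CPM in ODC. Its near-identical copy UQCRHL took between 2.06% and 2.99% of the counts of the pair across the 11 libraries, and reads of the pair may have been split between them.

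In complex IV, the 11 tested genes lay between -0.13 and 0.09 on the log2 scale at 24 h. The highest was COX5B, at 109, 91.6 and 87.1 CPM in CTRL and 117, 111 and 77.5 CPM in ODC. The lowest was COX7A2, given above, at a log2 fold change of -0.13 (SE 0.19). The ODC libraries of COX5B held both the highest and the lowest value of the 6. COX7B spread furthest within CTRL of the complex IV genes, and its interval ran from -0.61 to 0.46.

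Complex V had the widest range of fold changes at 24 h, from -0.44 (ATP5S) to 0.32 (ATP5E). Both ends were genes with few counts, 98 to 145 for ATP5S and 30 to 67 for ATP5E. Of its 17 tested genes, 13 were below 0 (76.5%, against 49.9% of all genes). These 13 include ATP5S and ATP5SL, which are not core subunits. The catalytic subunit gene ATP5B was at 1141, 988 and 1062 CPM in CTRL and 990, 887 and 988 CPM in ODC, a log2 fold change of -0.16 (SE 0.10). Its partner in the F1 head, ATP5A1, was at 551, 503 and 506 CPM in CTRL and 505, 477 and 438 CPM in ODC, a log2 fold change of -0.13 (SE 0.09). The groups of both genes overlapped, and by edgeR's quasi-likelihood test the adjusted p was 0.583 for ATP5B and 0.626 for ATP5A1. ATP5H, subunit d of the peripheral stalk, had the highest fold change after ATP5E, at 174, 165 and 133 CPM in CTRL and 210, 193 and 139 CPM in ODC. Its log2 fold change of 0.20 (SE 0.17) had an interval from -0.19 to 0.59. Without ODC library 6 it was 0.36, with an unadjusted p of 0.030 and an adjusted p of 0.261 by edgeR's quasi-likelihood test. ATP5E was listed at 2.21, 1.57 and 1.77 CPM in CTRL and 3.30, 1.78 and 1.87 CPM in ODC, with 1 high ODC library. The ATP5E row is uncertain, at 30 to 67 counts per library at 24 h. A readthrough gene that contains ATP5E is listed apart, at 0 counts in every library. ATP5J2, whose readthrough gene is also at 0 counts, had 690 to 1806 counts per library over both time points. The part of the readthrough gene in the ATP5E counts was not tested.

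ATP5S, the gene of coupling factor B (now DMAC2L, chr14:50312324-50335558), was the only tested gene of complexes II to V whose CTRL and ODC libraries at 24 h did not overlap. It was at 6.58, 6.99 and 8.02 CPM in CTRL and 5.41, 5.78 and 4.71 CPM in ODC. The log2 fold change was -0.44 (95% interval from -0.83 to -0.05), with an unadjusted p of 0.032 and an adjusted p of 0.344 by edgeR's quasi-likelihood test. It rested on 98 to 145 counts per library, and the unadjusted p rose above 0.05 when CTRL library 3, CTRL library 5, ODC library 2 or ODC library 6 was left out (0.053, 0.118, 0.067 and 0.087 by the same edgeR test). At 2 h ATP5S was at 7.51 and 5.40 CPM in CTRL and 5.50, 6.15 and 6.08 CPM in ODC, with overlapping groups. The coupling factor is not a core subunit of the synthase. ATP5SL (now DMAC2), named after it and known for a part in assembling complex I, was at 64.6, 68.3 and 63.9 CPM in CTRL and 64.4, 61.2 and 53.7 CPM in ODC at 24 h.

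**Figure D2:**
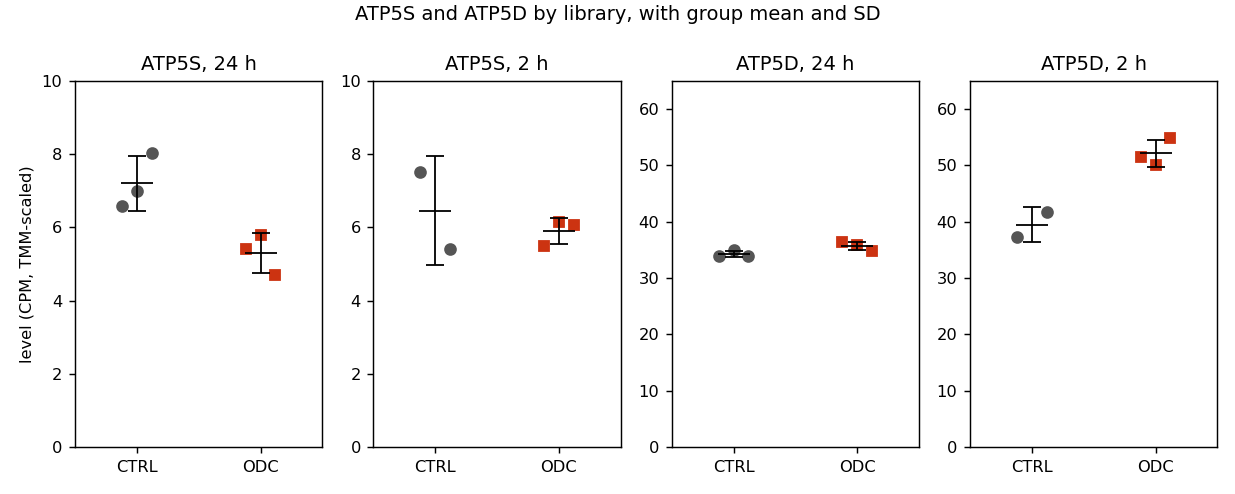
Level in CPM (y axis, from 0) of ATP5S and ATP5D in each library of CTRL (circles) and ODC (squares) at 24 h and 2 h, with the group mean and SD. ATP5S at 24 h and ATP5D at 2 h have groups that do not overlap, and the ATP5D libraries at 24 h lie between 33.8 and 36.4 CPM.

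At 2 h the picture was again one of small fold changes, with 1 gene of the 42 past the unadjusted threshold. The quasi-likelihood test of edgeR called 0 of 42 genes and 0 of 13332 genes tested (0%) after adjustment. DESeq2 called 1 gene and edgeR's likelihood ratio test 5 genes over the whole table, and neither called any of the 42. At an unadjusted p under 0.05, ATP5D was higher (1 of 42, 2.38%, against 1.47% of all genes) and 0 were lower (against 0.87%). The 42 fold changes lay between -0.25 and 0.40 on the log2 scale, and 34 were below 0 (81%, against 51.8% of all genes). The median was -0.067 against -0.0060 over all genes. It was 0.027 without CTRL library 1, -0.0028 without ODC library 5 and -0.13 without CTRL library 2. All 42 intervals stayed within a 2-fold change (100%, against 85.1%), and 38 stayed within 1.5-fold (90.5%, against 67.5%).

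ATP5D, the F1 delta subunit in the central stalk of the synthase (now ATP5F1D, chr19:1241746-1244825), was at 37.3 and 41.7 CPM in CTRL and 51.5, 50.1 and 54.8 CPM in ODC at 2 h. All 3 ODC libraries were above both CTRL libraries. The log2 fold change was 0.40 (95% interval from 0.16 to 0.65), with an unadjusted p of 0.0051 and an adjusted p of 1.00 by edgeR's quasi-likelihood test. At 24 h ATP5D was at 33.8, 34.9 and 34.0 CPM in CTRL and 36.4, 35.8 and 34.9 CPM in ODC, a log2 fold change of 0.06. All 6 libraries at 24 h were below the lowest library at 2 h. The change at 24 h minus that at 2 h was -0.36 (unadjusted p 0.0172, adjusted p 0.685 by edgeR's quasi-likelihood test on all libraries), and ATP5D was the only 1 of 42 genes past the unadjusted threshold for this difference (2.38%, against 5.93% of 13333 genes). None of the 42 passed an adjusted p of 0.05 for it by this test (against 0.015% of all genes). DESeq2 and the likelihood ratio test also called 0 of the 42, against 36 and 37 genes over the whole table. Without CTRL library 1 at 2 h the difference was -0.27 and its unadjusted p was 0.083 by the same edgeR test. The labels also give the libraries of the time points different dates, and time and date cannot be told apart.

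The groups did not overlap at 2 h for 8 of 42 genes (19%, against 15.3% of all genes). The 3 with higher ODC values (against 7.89% of all genes) were ATP5D, SDHA and COX8A. SDHA was at 273 and 277 CPM in CTRL and 287, 292 and 316 CPM in ODC, and COX8A at 126 and 125 CPM in CTRL and 140, 138 and 136 CPM in ODC. Apart from ATP5D, none of these 8 genes passed an unadjusted p of 0.05. The 5 with lower ODC values (against 7.42%) were SDHD, UQCRC2, COX7A2L, COX7C and ATP5G3. ATP5G3, a gene of subunit c, was at 214 and 207 CPM in CTRL and 185, 201 and 156 CPM in ODC, with a log2 fold change of -0.22 (SE 0.12). The lowest fold change at 2 h was that of COX7B (-0.25, SE 0.17), at 182 and 132 CPM in CTRL and 151, 137 and 107 CPM in ODC.

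Summed over its genes, each complex took nearly the same level in ODC as in CTRL. Complex II summed to 471 ± 26.4 CPM in CTRL and 464 ± 25.5 CPM in ODC at 24 h (SD, n = 3 and 3), a ratio of 0.985. Complex III summed to 1169 ± 96.1 and 1145 ± 118 CPM (ratio 0.979), and complex IV to 1454 ± 119 and 1433 ± 213 CPM (ratio 0.985). For these 3 complexes the difference of the means was under 1 SD of either group. Complex V summed to 3185 ± 268 and 3002 ± 280 CPM (ratio 0.942), again with a difference smaller than either SD. At 2 h the ratios were 1.02, 0.966, 0.964 and 0.959 for complexes II to V. All genes together summed to 0.553% to 0.683% of the counts of a library at 24 h.

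**Figure D3:**
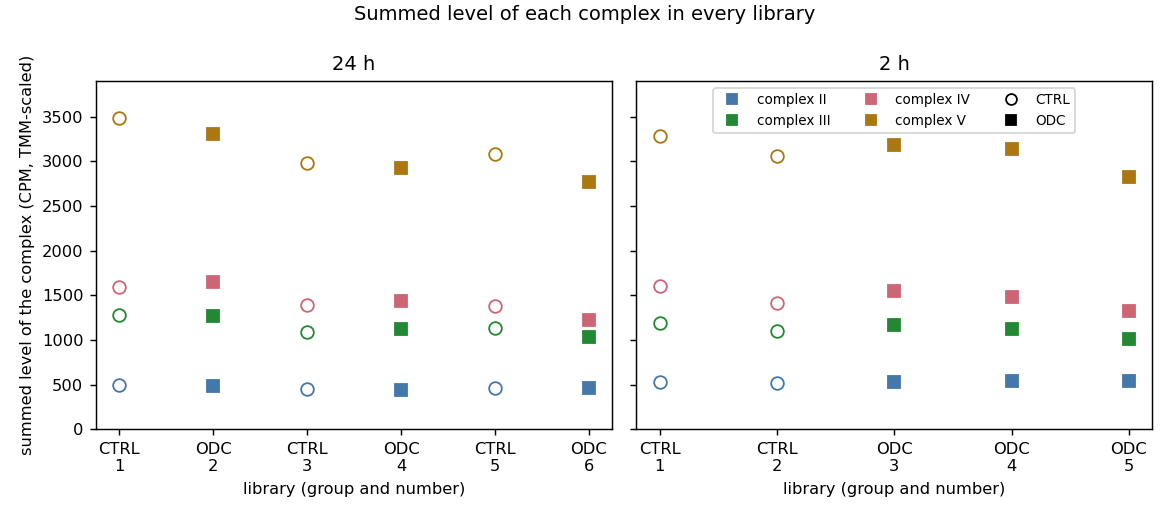
Summed CPM of the genes of complexes II, III, IV and V (y axis, from 0) in each library (x axis) of CTRL (open circles) and ODC (filled squares) at 24 h and 2 h. At 24 h the complex V sums ran from 2768 (ODC library 6) to 3488 CPM (CTRL library 1), and the ODC and CTRL points overlap in every complex.

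Libraries of the same group also differed in their summed level. At 24 h the summed level of all the genes was 6859, 5910 and 6071 CPM in CTRL libraries 1, 3 and 5, and 6716, 5921 and 5495 CPM in ODC libraries 2, 4 and 6. CTRL library 1 and ODC library 2 were thus the 2 highest, and ODC library 6 the lowest. For a single gene the CTRL libraries spanned a median of 0.27 on the log2 scale, while the difference of the group means had a median size of 0.078. The difference was smaller than the CTRL range for 37 of 42 genes (88.1%, against 76.9% of all genes) at 24 h and for 30 of 42 (71.4%, against 71.4%) at 2 h. A range over single libraries tends to exceed a difference of means even where groups are alike, so these counts are descriptions.

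These genes moved together from library to library. The median deviation of the 42 genes from their own means at 24 h was 0.16, -0.08 and -0.04 on the log2 scale in CTRL libraries 1, 3 and 5, and 0.17, -0.03 and -0.18 in ODC libraries 2, 4 and 6. Transcript length moved with this. In the 19 genes with a MANE Select transcript under 1000 bases the deviation ran from 0.23 in ODC library 2 to -0.26 in ODC library 6. In the 23 longer ones it ran from 0.16 in CTRL library 1 to -0.14 in ODC library 6. Over all 584 tested genes with such short transcripts it ran from 0.15 in ODC library 2 to -0.19 in ODC library 6, and over the 10942 genes with longer ones it stayed near 0. The short genes of complexes II to V thus deviated in the direction of short transcripts in general in these libraries. The part of transcript length in the fold changes was not tested.

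**Figure D4:**
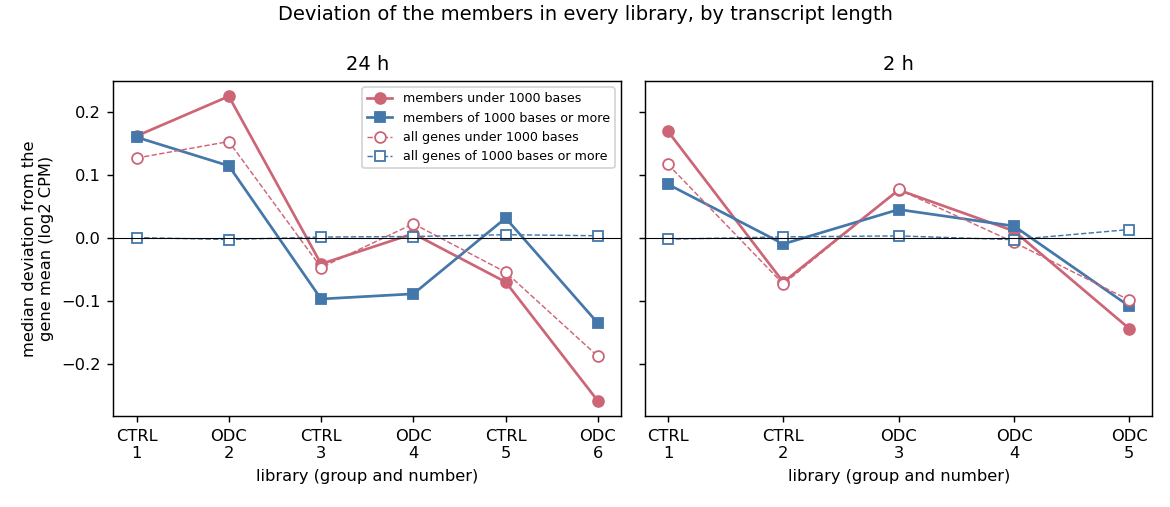
Median deviation from the gene's mean over the libraries of its time point (y axis, log2 CPM) in each library (x axis), for the genes of complexes II to V (filled) and all tested genes (open) with transcripts under 1000 bases (circles) or of 1000 bases or more (squares). Lines only join the points of a set; ODC library 6 is the lowest and CTRL library 1 and ODC library 2 are the highest at 24 h for both sets of filled points.

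Libraries with adjacent numbers at 24 h, 1 CTRL and 1 ODC each, shared these deviations. Over the 42 genes, the deviations from the group means correlated with r of 0.77 between libraries 1 and 2, 0.64 between 3 and 4, and 0.73 between 5 and 6. Over all 12689 genes r was 0.20, 0.58 and 0.45. Over all genes CTRL library 1 did not correlate most with its neighbour, since r with ODC library 6 was 0.23. The genes are not independent and the labels do not pair the libraries, so these are descriptions. With libraries 1 and 2, 3 and 4, and 5 and 6 set side by side, 13 of 42 genes were lower in the ODC library each time (31%, against 22.9% of all genes) and 5 were higher each time (11.9%, against 23.5%). Those lower were SDHB, SDHD, UQCRC1, UQCRC2, UQCRHL, COX5A, ATP5A1, ATP5B, ATP5C1, ATP5F1, ATP5G3, ATP5S and ATP5SL. Those higher were SDHC, COX6A1, ATP5D, ATP5E and ATP5H. Of the genes of F1, ATP5A1, ATP5B and ATP5C1 were thus among those lower and ATP5D and ATP5E among those higher. The 2 higher ones differed little in libraries 5 and 6, with ATP5D at 34.0 and 34.9 CPM and ATP5E at 1.77 and 1.87 CPM. ATP5E also rested on 30 to 67 counts per library. With adjacent libraries as blocks, edgeR's quasi-likelihood test placed 3 of 42 genes past an unadjusted p of 0.05 (7.14%, against 23.6% of all genes): ATP5S, SDHD (log2 fold change -0.17) and ATP5H (0.19). It called 0 of 42 after Benjamini-Hochberg adjustment, with a lowest adjusted p of 0.158, against 686 genes over the whole table (5.41%).

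Subunit c, which forms the rotating ring of the synthase, is encoded by 3 genes that differ in the sequence cleaved off on import but give the same mature protein. Of the counts of these genes, ATP5G1 took between 22.7% and 26.8% in the 6 libraries at 24 h and between 14.6% and 15.8% in the 5 libraries at 2 h. No library of either time point fell in the range of the other. ATP5G2 took between 32.6% and 41.7% at 24 h and between 39.7% and 44.9% at 2 h, and ATP5G3 between 33.6% and 42.3% and between 40.4% and 45.6%. Within a time point CTRL and ODC overlapped for ATP5G1 at 24 h, at 150, 116 and 122 CPM in CTRL and 144, 117 and 96.7 CPM in ODC. ATP5G2 was at 183, 179 and 158 CPM in CTRL and 200, 199 and 157 CPM in ODC, and ATP5G3 at 227, 169 and 205 CPM in CTRL and 211, 161 and 173 CPM in ODC. The shares are shares of counts, not per length, and rank nothing among the 3 genes.

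**Figure D5:**
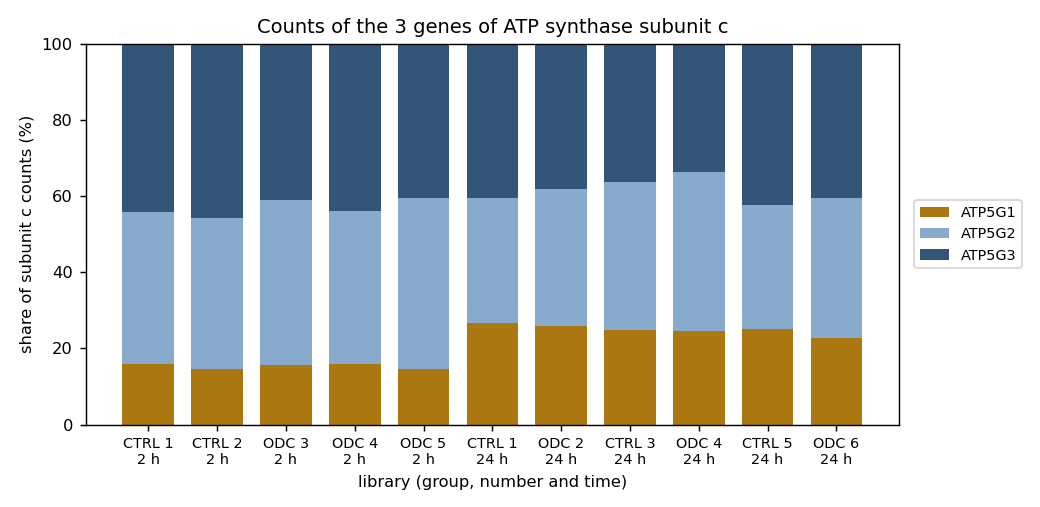
Share of the counts of ATP5G1, ATP5G2 and ATP5G3 (y axis, percent) in each of the 11 libraries (x axis). ATP5G1 took 14.6% to 15.8% at 2 h and 22.7% to 26.8% at 24 h, in CTRL and ODC libraries alike.

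Some further genes differed between the time points, in CTRL and ODC libraries together. With all 11 libraries scaled jointly, 3 of 42 genes were higher in every 24 h library than in any 2 h library (7.14%, against 13% of all genes) and 5 were lower (11.9%, against 14%). ATP5G1 averaged 125 CPM at 24 h and 67.9 CPM at 2 h, SDHB 150 and 95.3 CPM, and UQCRFS1 138 and 92.7 CPM. The lower ones were SDHC (52.3 and 80.6 CPM) and SDHA (200 and 286 CPM) of complex II, with ATP5D, UQCRC1 and COX4I1. In complex II, the iron-sulfur subunit gene was thus higher at 24 h and the flavoprotein and 1 anchor lower. No test was made, since time and date cannot be told apart.

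Other genes of the pathway are those that assemble the complexes, those that regulate mitochondrial biogenesis, and the subunits of complex I. Of 41 assembly factors, 11 were above 0 and 30 below 0 at 24 h (73.2% below 0, against 49.9% of all genes). Their median was -0.03. The 41 include C17orf89 (log2 fold change 0.23), which is known for a part in assembling complex I. None (0 of 41, against 12.2% of all genes) passed an unadjusted p of 0.05 by edgeR's quasi-likelihood test, its likelihood ratio test or DESeq2. The farthest from 0 were the complex II factor SDHAF3 (-0.47, p 0.065) and COX16 (0.45, p 0.082), both by edgeR's quasi-likelihood test. At 2 h, 1 of 41 (2.44%, against 2.34% of all genes) passed an unadjusted p, the lower COA6 (32.3 ± 1.77 CPM in CTRL, n = 2, and 26.4 ± 1.84 CPM in ODC, n = 3), a factor for the copper centre of complex IV.

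Of the biogenesis regulators, 10 of 11 were tested at 24 h and 0 passed an unadjusted p of 0.05 by these 3 tests, again against 12.2% of all genes by the quasi-likelihood test. TFAM, which packages and transcribes mitochondrial DNA, was at 141 ± 20.7 CPM in CTRL and 111 ± 25.1 CPM in ODC (log2 fold change -0.35, SE 0.18, n = 3 and 3). TFB1M, a mitochondrial rRNA methyltransferase, was at 13.0 ± 1.66 and 10.1 ± 1.71 CPM (-0.36, SE 0.17). The 2 regulators whose motifs are shown above were near 0 or below it, NRF1 at a log2 fold change of 0.03 (SE 0.12) and GABPA at -0.18 (SE 0.12). GABPA was at 21.8 ± 0.57 CPM in CTRL and 19.2 ± 2.02 CPM in ODC. Among the 10 tested regulators, only GABPA had groups that did not overlap at 24 h (against 17.9% of all genes). At 2 h, 1 of 11 (9.09%, against 2.34%) passed an unadjusted p, the lower coactivator gene PPARGC1B (10.0 ± 1.46 CPM in CTRL and 7.37 ± 0.93 CPM in ODC). Neither the electron carrier gene CYCS nor the ATP synthase inhibitor gene ATPIF1 passed that threshold at 24 h or 2 h.

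The complex I genes were compared as the nearest set of like genes, taken by symbols starting with NDUFA, NDUFB, NDUFC, NDUFS or NDUFV. The set thus includes NDUFA4, whose product is known as a subunit of complex IV, and its paralogue NDUFA4L2. Of these 39 genes, 22 were below 0 at 24 h (56.4%, against 49.9% of all genes) with a median of -0.02. At an unadjusted p, 1 of 39 was lower (2.56% past this p, against 12.2%), NDUFB6 (39.1 ± 3.19 CPM in CTRL and 29.8 ± 2.76 CPM in ODC, n = 3 and 3, adjusted p 0.241 by edgeR's quasi-likelihood test). At 2 h, 2 were higher at an unadjusted p (5.13%, against 2.34%), NDUFS7 (log2 fold change 0.43) and NDUFS8 (0.27), and 27 of 39 were below 0 (69.2%, against 51.8%). The median over complexes II to V was -0.037 at 24 h, and whether it differs from that of this set was not tested. Of 4 targets of the oxidative stress factor NRF2, 2 passed an adjusted p of 0.05 at 24 h by edgeR's quasi-likelihood test. The share over all genes was 0.189%, and the list was chosen with earlier results of these data known. NQO1 was at 200 ± 19.5 CPM in CTRL and 581 ± 20.5 CPM in ODC (n = 3 and 3), with an adjusted p of 0.0022 by edgeR's quasi-likelihood test, and the ferritin gene FTL had a log2 fold change of 2.04. HMOX1 (log2 fold change 3.03, adjusted p 0.190 by the same edgeR test) and GCLM (0.41, adjusted p 0.686) did not pass. The likelihood ratio test called 3 of the 4 after adjustment, with HMOX1 among them, against 401 of 12689 genes. DESeq2 called 2 of the 4, against 386. At 2 h, 0 of the 4 passed an unadjusted p of 0.05 by edgeR's quasi-likelihood test, against 2.34% of all genes. The likelihood ratio test and DESeq2 also placed 0 of the 4 past it.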

How the data were processed

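The authors deposited raw read counts per gene in 1 table per time point, with no normalization. Per the submitters' processing notes, reads were aligned with STAR 2.7.0f to hg38 and counted with HTSeq 0.9.1, and the notes also name edgeR 3.26.8. The strand and multimapping settings of the counting are not given in the sources used here. Genes with filterByExpr's minimum count of 10 and total of 15 were kept, TMM factors were computed, and edgeR 4.0.16 (R 4.3.3) fitted its earlier quasi-likelihood test (two-sided) per time point, with Benjamini-Hochberg adjustment over all genes tested. The difference between time points came from 1 fit of all 11 libraries. Intervals are at 95%. Libraries of a group all differed by more than sampling noise. Depth was 17785229 to 31118349 counts per library, and precision is given by the intervals.

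The genes and lists were chosen with earlier results of these data known. All 50 genes were accounted for. Those named with values were the genes past a threshold, the highest and lowest per complex at 24 h, and the isoform groups. Other genes, such as ATP5B and SDHA, were named as examples of their complex. The genes of adjacent-library and time contrasts were named after their values were seen. Locations and lengths are from GENCODE 44 and promoter windows from RefSeq. Counts of UQCRH with UQCRHL, of SDHA with its pseudogenes (SDHAP1, SDHAP2 and SDHAP3), and of ATP5 genes with pseudogenes may share reads. The script was tested on simulated counts. Alternatives were no filter, a filter of more than 1 CPM in at least 3 libraries, other scalings, edgeR's newer and likelihood ratio tests, DESeq2 1.42.0, a joint fit, adjacent libraries as blocks, and each library left out.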

Additional observations from a re-analysis of the deposited data

How the results depend on the processing

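No gene of complexes II to V passed an adjusted p of 0.05 under any alternative run at 24 h or 2 h. The count past an unadjusted p, 1 at 24 h, was 0 to 1 with a library left out, the 1 without ODC library 6 being ATP5H, higher, and not ATP5S. With adjacent libraries as blocks it was 3 of 42, while all genes past that p went from 1553 to 2999 of 12689. At 2 h it was 1, and 1 to 2 with a library left out, where COX7B joined without CTRL library 2 and ATP5G3 without ODC library 4. For the difference between 24 h and 2 h it was 1, and 0 to 2 with a library left out. Without a filter it was 2 of 45 genes, ATP5D and a gene outside the 42 with at most 4 counts in any library. No paired analysis by label was possible because the labels give the libraries of CTRL and ODC no shared replicate numbers, so the block of adjacent libraries is only a hint from the data. The median log2 fold change at 24 h was -0.16 to 0.042 with a library left out, being above 0 without CTRL library 1 (0.028) or ODC library 6 (0.042), and at 2 h it was -0.13 to 0.027, being above 0 without CTRL library 1. ATP5S at 24 h stayed below 0 in all alternatives. Single genes changed sign in 52 of 252 values at 24 h and 43 of 210 at 2 h with a library left out, and in 10 of 378 and 6 of 378 under other settings. The count over all genes at 24 h, 24, was 401 by the likelihood ratio test, 386 by DESeq2, 186 in the joint fit, 92 without a filter, 686 with the blocks and 2 to 70 with a library left out. At 2 h it was 0, and 42 without CTRL library 2. For the difference it was 2, and 37 by the likelihood ratio test, 36 by DESeq2, 7 without a filter and 0 to 4 with a library left out. The causes were not tested. Depth limits ATP5E, ATP5S and UQCRHL most. Each comparison had 2 or 3 libraries a group, and proteins were not measured.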
